A study of Mus musculus with 8 samples.

Results

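The exocrine pancreas makes the enzymes that digest food in the gut. Its acinar cells store them as inactive precursors in zymogen granules and release them into the duct. 34 genes of this programme were followed here in the middle colon of mice after chemical colitis. They comprise trypsinogens, other protease precursors, lipid-digesting enzymes, amylases, a ribonuclease, granule and secretory pathway proteins, and the transcription factors that run the acinar programme. 32 of the 34 had a probe set annotated to that gene alone and are described here, out of 22180 genes so measured. Pnlip, pancreatic lipase, and Cela2a, an elastase, had none. 1 member had more than 1 such probe set, and its brighter one, by the average of the 8 arrays, stands for it. The genes were selected on high enzyme signals seen in some knockout arrays of these same data, so their signals by genotype are a description.

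The study put total RNA from 4 Trim58-/- and 4 Trim58+/+ mice on 1 whole-transcript array each. All 8 were females of strain C57BL/6-Trim58tm2313Arte, 9 weeks old and kept specific pathogen free. Each drank 4% dextran sodium sulfate (DSS), a polysaccharide that injures the colon lining, for 7 days and plain water for 5 days, and its colon was taken on day 12. The 4 knockouts are called KO1 to KO4 and the 4 wild types WT1 to WT4, by their labelled replicate numbers. Both genotypes had colitis and no untreated colon was analysed here. The labels limit the deletion to no tissue, so effects arising in the colon and elsewhere in the body cannot be told apart.

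Signals are deposited log2 values. A step of 1 is a 2-fold difference, and signal can be compared between arrays for 1 probe set but not between probe sets. The targeted gene, Trim58, a ubiquitin ligase gene, gave 4.91, 5.37, 4.82 and 5.11 in KO1 to KO4 and 5.22, 5.07, 5.18 and 5.03 in WT1 to WT4. These overlap, so this probe set does not check the genotype labels. Colon epithelium markers gave signal on every array, with Muc2, the main colonic mucin, between 13.41 and 13.66 in the knockouts and between 13.49 and 13.65 in the wild types. Cdx2, an intestinal transcription factor, lay between 7.79 and 8.71 in the knockouts and between 7.45 and 8.69 in the wild types. Of the 11 such markers measured, 4 had all knockouts below all wild types, as 5.02% of all genes did, namely Aqp8, Car4, Slc26a3 and Epcam. Aqp8, a colonocyte water channel, lay between 8.53 and 9.61 in the knockouts and between 10.02 and 10.44 in the wild types. Car4, a colonocyte carbonic anhydrase, lay between 10.54 and 11.18 in the knockouts and between 11.37 and 11.77 in the wild types and was called lower by limma (adjusted p = 0.0401). The RNA came from samples of mid-colon tissue, in which more cells of a type and more RNA per cell cannot be told apart. Which tissue or cells the enzyme RNA came from was not tested, and the sources used gave no dissection notes.

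Acinar enzyme genes are known to share a bipartite promoter site, an E-box read as CACCTG beside a TC-box read as TTTCCC, that the pancreatic complex of Ptf1a and Rbpjl binds. RefSeq promoter windows (GRCm38.p6, 250 bases before to 50 after the gene start) were matched by symbol for 28 of the 34 genes. Both motifs were searched as these exact letters on both strands, and they share no overlap with each other. CACCTG was in the window of 17 of the 28 genes (60.7%), against 22.6% of 27025 genes with a window. TTTCCC was in 9 of 28 (32.1%), against 27.9% of all genes. Both motifs with at most 30 bases between them were found in 3 of 28 (10.7%), namely Prss1, Cel and Cela1, against 1.3% of all genes. The windows of these 3 genes follow, with both motifs in capitals, 5′ to 3′ on the gene's strand, where a motif on the opposite strand reads CAGGTG or GGGAAA.
Prss1, chr6:41458680-41458979, plus strand: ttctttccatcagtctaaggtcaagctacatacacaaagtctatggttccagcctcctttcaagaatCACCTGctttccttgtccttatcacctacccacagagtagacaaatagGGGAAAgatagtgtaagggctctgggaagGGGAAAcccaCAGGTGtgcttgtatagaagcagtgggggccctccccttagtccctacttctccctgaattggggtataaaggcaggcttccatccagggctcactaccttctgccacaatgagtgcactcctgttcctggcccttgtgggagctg
Cel, chr2:28563354-28563653, minus strand: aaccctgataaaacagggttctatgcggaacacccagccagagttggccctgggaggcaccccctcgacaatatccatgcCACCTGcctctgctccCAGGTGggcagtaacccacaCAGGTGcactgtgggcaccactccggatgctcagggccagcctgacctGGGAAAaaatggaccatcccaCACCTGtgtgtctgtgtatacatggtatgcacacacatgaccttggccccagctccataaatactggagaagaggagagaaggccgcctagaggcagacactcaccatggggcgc
Cela1, chr15:100687871-100688170, minus strand: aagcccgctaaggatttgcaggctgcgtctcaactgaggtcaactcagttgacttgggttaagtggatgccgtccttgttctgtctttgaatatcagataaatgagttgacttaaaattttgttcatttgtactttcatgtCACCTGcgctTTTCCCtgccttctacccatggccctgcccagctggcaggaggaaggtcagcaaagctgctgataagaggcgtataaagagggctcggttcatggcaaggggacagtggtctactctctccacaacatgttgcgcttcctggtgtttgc
In the Cela1 window 4 bases separate CACCTG from TTTCCC, and both lie on the gene's strand. In Prss1 the nearest pair is also 4 bases apart, on the opposite strand. In Cel the nearest pair is 15 bases apart, with TTTCCC on the opposite strand and CACCTG on the gene's strand. The next 3 windows are shown for the contrast in signal between genes. Cpb1 and Try4 were far above wild type in 3 knockout arrays, and Prss3 was within 1 log2 unit of the wild type range in all 4.
Cpb1, chr3:20275684-20275983, minus strand: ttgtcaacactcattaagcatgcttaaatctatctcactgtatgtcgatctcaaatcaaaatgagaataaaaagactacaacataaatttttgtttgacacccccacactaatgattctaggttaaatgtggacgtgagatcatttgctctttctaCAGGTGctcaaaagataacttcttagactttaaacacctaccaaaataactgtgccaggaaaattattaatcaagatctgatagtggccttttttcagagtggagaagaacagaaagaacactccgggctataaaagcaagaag
Try4, chr6:41302022-41302321, plus strand: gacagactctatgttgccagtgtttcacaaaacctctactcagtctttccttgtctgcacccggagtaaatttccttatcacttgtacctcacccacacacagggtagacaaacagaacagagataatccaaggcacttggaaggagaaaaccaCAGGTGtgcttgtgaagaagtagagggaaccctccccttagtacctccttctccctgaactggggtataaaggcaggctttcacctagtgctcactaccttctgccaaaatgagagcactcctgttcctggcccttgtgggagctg
Prss3, chr6:41377564-41377863, minus strand: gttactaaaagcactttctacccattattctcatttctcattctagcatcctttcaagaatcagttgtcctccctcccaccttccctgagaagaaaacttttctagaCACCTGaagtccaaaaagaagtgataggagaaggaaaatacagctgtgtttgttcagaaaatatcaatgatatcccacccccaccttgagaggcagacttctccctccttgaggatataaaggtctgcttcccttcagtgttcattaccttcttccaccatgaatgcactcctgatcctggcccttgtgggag
Each of these holds 1 CACCTG and no TTTCCC. Of the genes that read over 1 log2 unit above every wild type in KO1, 11 of 18 windows (61.1%) held CACCTG, and of the other measured members 5 of 8 (62.5%) did. TTTCCC was in 7 of the 18 (38.9%) and 1 of the 8 (12.5%). Both motifs within 30 bases were in 3 of the 18 (16.7%) and 0 of the 8. These sets are small and the differences were not tested. A match is a stretch of letters and not a shown binding site.

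Most enzyme genes were very high in KO1, KO2 and KO4, and all were within 1 log2 unit of the wild type range in KO3. A value was counted as above the wild type range when it exceeded the highest of the 4 wild type arrays by over 1 log2 unit. By that count 20 of the 32 members were above the range in KO1, 23 in KO2, 0 in KO3 and 21 in KO4. Over all 22180 genes the shares were 0.392% in KO1, 0.64% in KO2, 0.216% in KO3 and 0.379% in KO4. The same 20 members were above in KO1, KO2 and KO4, with Ctrc added in KO2 and KO4 and Amy1 and Rbpjl in KO2. Of the 21 enzyme and colipase genes, 18 were above in KO2 and 3 in none of the knockouts, the trypsinogens Prss3 and Try5 and the kallikrein Klk1. These shares restate the values that led to the choice of genes, and nothing is read from their excess over the background.

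The carboxypeptidases, which trim amino acids from the ends of peptides, included the member with the highest fold over wild type. Cpb1 gave 12.18, 12.65 and 12.50 in KO1, KO2 and KO4, 4.62 in KO3, and 4.68, 4.61, 4.53 and 4.67 in WT1 to WT4. Relative to the wild type mean this is 189-fold in KO1, 261-fold in KO2, 0.998-fold in KO3 and 235-fold in KO4. That mean, 4.62, lay below every array median, where the array processing compresses differences, so these folds are uncertain. The same limit holds for other genes whose wild type signals were that low. Cpa1 gave 11.98, 12.61, 5.29 and 12.45 in KO1 to KO4, against 5.14, 5.23, 5.33 and 5.13 in WT1 to WT4. For both genes KO3 fell inside the wild type range.

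**Figure D1:**
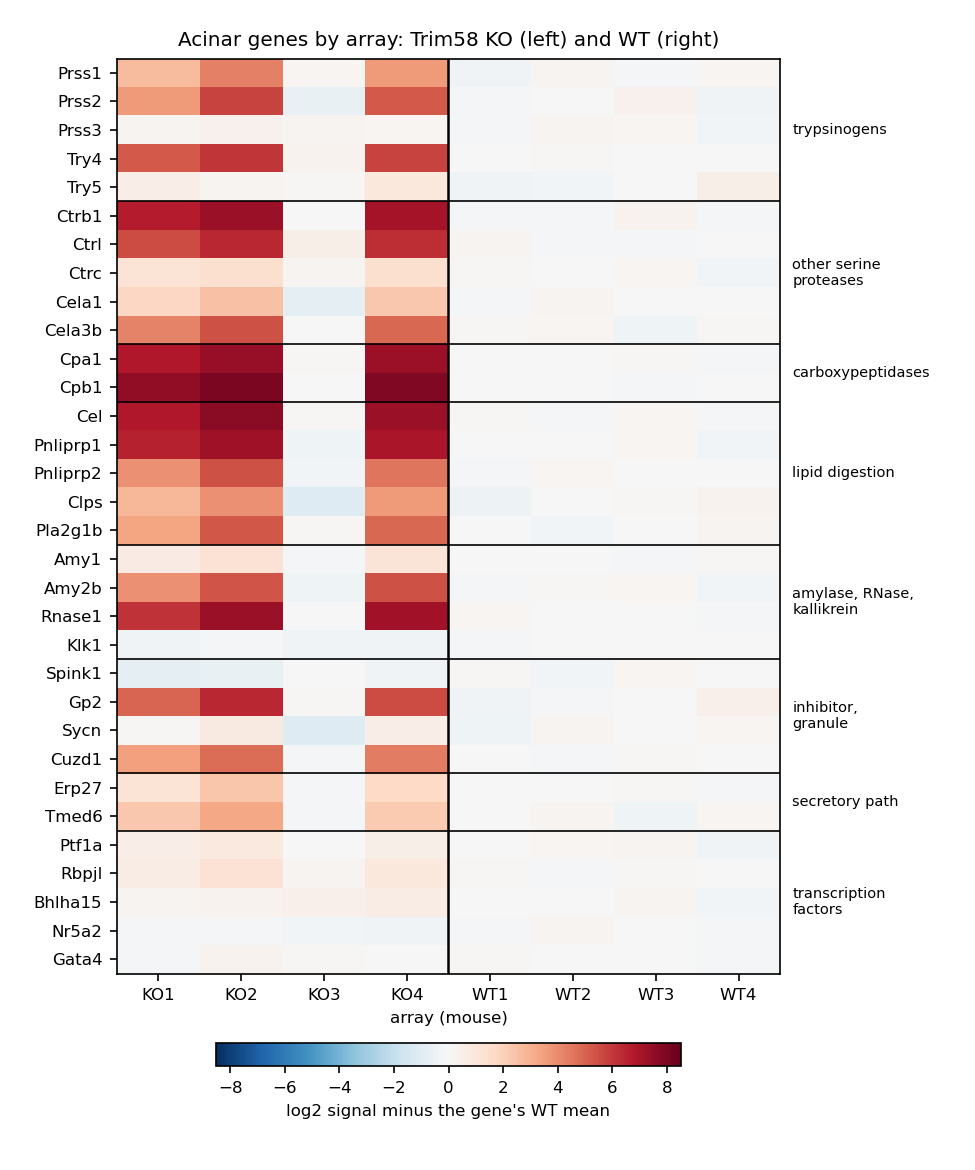
Log2 signal of 32 acinar genes in each array, after subtraction of the gene's wild type mean, by role (rows) and array (columns, Trim58 knockouts left, wild types right). KO1, KO2 and KO4 are red over most enzyme rows, up to 8.03 for Cpb1 in KO2, and KO3 is nearly as pale as the wild types.

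Among the trypsinogens, precursors of the protease that activates the other enzymes, the genes split. Prss2 gave 9.10, 11.22, 4.84 and 10.69 in KO1 to KO4, against 5.34, 5.46, 5.84 and 5.15 in WT1 to WT4. Try4 gave 11.91, 12.82, 7.05 and 12.49 in the knockouts, against 6.69, 6.81, 6.72 and 6.66 in the wild types. Prss1 gave 8.0, 9.61, 5.43 and 8.92 in the knockouts, against 5.02, 5.55, 5.17 and 5.43 in the wild types. All 3 genes were far above every wild type in KO1, KO2 and KO4. In KO3, Try4 was 0.24 above its highest wild type, Prss1 inside the wild type range and Prss2 below it. Prss3 gave 4.15, 4.29, 4.19 and 4.12 in KO1 to KO4, against 3.78, 4.20, 4.11 and 3.71 in WT1 to WT4. Try5 gave 3.30, 2.93, 2.79 and 3.59 in the knockouts, against 2.39, 2.50, 2.72 and 3.21 in the wild types. These last 2 overlapped between genotypes on their own probe sets. A further probe set annotated to Gm10334 and Prss3 together gave 6.23, 6.46, 5.96 and 6.46 in the knockouts, against 5.86, 5.97, 5.93 and 5.87 in the wild types. There KO1, KO2 and KO4 were above every wild type, by under 1 log2 unit, and KO3 was not. Which of both genes gave this signal cannot be told apart. Trypsinogen genes are close in sequence, so how far their probes bind each other's RNA is uncertain.

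Chymotrypsin-like and elastase genes were above wild type in KO1, KO2 and KO4 as well. Ctrb1, a chymotrypsinogen, gave 12.59, 13.25, 5.94 and 12.97 in KO1 to KO4, against 5.78, 5.82, 6.17 and 5.83 in WT1 to WT4. Ctrl, a chymotrypsin-like protease, gave 11.98, 12.87, 6.93 and 12.68 in the knockouts, against 6.64, 6.31, 6.34 and 6.44 in the wild types. For Ctrl, KO3 exceeded the highest wild type as well, by 0.29. Cela3b, an elastase, gave 8.51, 9.72, 4.34 and 9.14 in the knockouts, against 4.38, 4.45, 3.88 and 4.40 in the wild types. Ctrc, the chymotrypsin that degrades trypsinogen, differed much less on its own probe set, with 6.87, 7.07, 5.96 and 7.09 in the knockouts, against 5.86, 5.67, 5.89 and 5.54 in the wild types. A further probe set annotated to Cela2a and Ctrc together gave 11.68, 12.42, 5.87 and 12.17 in the knockouts, against 5.81, 5.96, 5.92 and 5.83 in the wild types. Which of both genes gave this signal cannot be told apart.

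Lipid-digesting genes followed the same arrays, 5 of 5 measured. Cel, which cleaves cholesterol esters, gave 11.73, 12.61, 5.05 and 12.27 in KO1 to KO4, against 5.03, 4.82, 5.14 and 4.79 in WT1 to WT4. Pnliprp1 gave 11.72, 12.42, 4.82 and 12.13 in the knockouts, against 5.18, 5.23, 5.35 and 4.97 in the wild types. The lipase-related gene Pnliprp2 read 14.5-fold over the wild type mean in KO1, 42.3-fold in KO2, 0.838-fold in KO3 and 23.9-fold in KO4. Pla2g1b, the secreted phospholipase of pancreatic juice, stood 10.5-fold over the wild type mean in KO1, 39.7-fold in KO2, 1.07-fold in KO3 and 29.2-fold in KO4.

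Of the carbohydrate and nucleic acid enzymes, Rnase1, the pancreatic ribonuclease, gave 10.13, 11.33, 3.93 and 11.07 in KO1 to KO4, against 4.13, 3.98, 3.91 and 3.84 in WT1 to WT4. Amy2b, a pancreatic amylase, gave 6.10, 7.52, 1.84 and 7.64 in the knockouts, against 2.12, 2.32, 2.36 and 2.0 in the wild types. Amy1, the salivary and liver amylase, read 1.65-fold over the wild type mean in KO1, 2.29-fold in KO2, 0.896-fold in KO3 and 2.12-fold in KO4, with 4.81, 5.28, 3.93 and 5.17 in the knockouts, against 4.03, 4.12, 4.00 and 4.20 in the wild types. 4 probe sets annotated to Amy2b and 5 Amy2a copies together were left out by the rule of 1 gene symbol per probe set. They share a member and the same arrays, so they are no independent support. They gave 13.00 to 13.35 in KO1, 13.11 to 13.45 in KO2, 4.82 to 4.96 in KO3 and 13.09 to 13.42 in KO4. In the wild types the same 4 probe sets lay between 4.80 and 5.41. The 3 high arrays were thus near the highest signal on any array, 13.66. The brightest of the 4 read 336-fold over the wild type mean in KO1, 359-fold in KO2, 0.905-fold in KO3 and 352-fold in KO4. Its wild type signals also lay below every array median, so these folds are uncertain too.

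**Figure D2:**
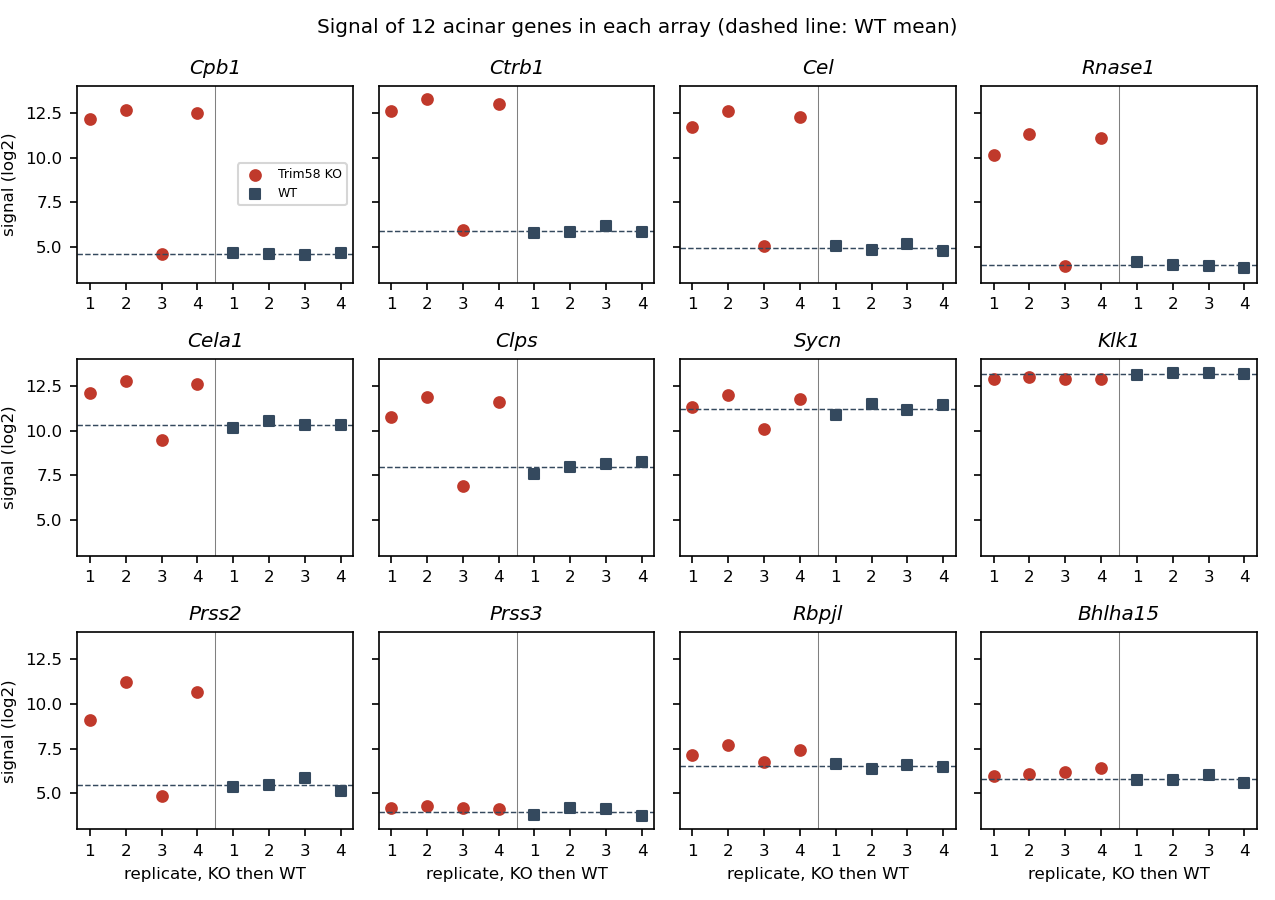
Log2 signal (vertical axis) of 12 acinar genes in each array, Trim58 knockouts as red circles on the left and wild types as dark squares on the right, with the wild type mean dashed. Cpb1, Ctrb1, Cel and Rnase1 are high in KO1, KO2 and KO4 alone, Cela1, Clps and Sycn are below every wild type in KO3, and Klk1, Prss3 and Bhlha15 stay within 1 log2 unit of the wild type mean.

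3 secretory genes lay furthest below their wild type mean in KO3 among the members. Cela1, an elastase, gave 12.11, 12.80, 9.49 and 12.62 in KO1 to KO4, against 10.17, 10.53, 10.32 and 10.30 in WT1 to WT4. Clps, the cofactor of pancreatic lipase, gave 10.80, 11.89, 6.89 and 11.59 in the knockouts, against 7.56, 7.99, 8.11 and 8.27 in the wild types. Sycn, a zymogen granule protein, gave 11.32, 12.02, 10.11 and 11.77 in the knockouts, against 10.88, 11.47, 11.18 and 11.42 in the wild types. KO3 was 1.80-fold below the wild type mean for Cela1, 2.14-fold for Clps and 2.18-fold for Sycn, and below each wild type array. The wild type signal of these 3 was therefore not the lowest that their probe sets gave. In all, KO3 was below the lowest wild type for 11 of the 32 members, and for 21.5% of all genes. It was above the highest wild type for 6 of 32, and for 18.2% of all genes.

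Klk1, tissue kallikrein, which also occurs outside the pancreas, gave 12.92, 13.03, 12.91 and 12.91 in KO1 to KO4, against 13.12, 13.25, 13.24 and 13.16 in WT1 to WT4. It was the single member with all 4 knockouts below all 4 wild types, an arrangement found in 5.02% of all genes. Spink1, an inhibitor that blocks trypsin inside the gland and is also made in the gut, gave 11.35, 11.57, 12.22 and 11.93 in the knockouts, against 12.34, 11.96, 12.35 and 12.19 in the wild types. Both genes read below every wild type in KO1, KO2 and KO4, where the enzymes were high. Gp2, the main membrane protein of the zymogen granule, gave 9.86, 11.31, 4.99 and 10.47 in the knockouts, against 4.61, 4.80, 4.85 and 5.34 in the wild types. Cuzd1, another zymogen granule membrane protein, was 11.2-fold over the wild type mean in KO1, 27.2-fold in KO2, 0.955-fold in KO3 and 20.5-fold in KO4. The endoplasmic reticulum protein gene Erp27 was 2.22-fold, 5.01-fold, 0.939-fold and 3.21-fold relative to the wild type mean in KO1 to KO4. Tmed6, a cargo adaptor of the secretory pathway, was 4.81-fold, 9.97-fold, 0.928-fold and 4.59-fold.

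The acinar transcription factors differed by less than most enzyme genes on the log2 scale. The array processing compresses differences near background, and Ptf1a had a wild type mean of 4.54, below every array median. How much the RNA itself differed between factors and enzymes was therefore not compared. Rbpjl, the pancreatic partner of Ptf1a, gave 7.15, 7.73, 6.74 and 7.40 in KO1 to KO4, against 6.64, 6.34, 6.60 and 6.49 in WT1 to WT4. All 4 knockouts were above all 4 wild types, an arrangement found in 3.79% of all genes and in 4 members, the others being Try4, Ctrl and Ctrc. Ptf1a gave 5.08, 5.37, 4.6 and 5.07 in the knockouts, against 4.50, 4.69, 4.74 and 4.23 in the wild types, so KO3 again lay inside the wild type range. A second Ptf1a probe set, of lower signal, gave 3.64, 3.86, 3.71 and 3.80 in the knockouts, against 3.69, 3.51, 3.77 and 3.76 in the wild types and did not separate the same arrays. Bhlha15, which shapes the secretory cell and is also expressed in plasma cells, gave 5.99, 6.10, 6.19 and 6.43 in the knockouts, against 5.77, 5.75, 6.02 and 5.55 in the wild types, with KO4 the highest. Nr5a2, a nuclear receptor that intestinal crypts express too, and Gata4 each stayed within 0.29 of their wild type mean in all 4 knockouts.

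Averaged over 4 knockouts these differences are large and uncertain. The median difference of knockout minus wild type over the 32 members was 2.50 on the log2 scale, against -0.01 over all genes. With limma across all genes and a Benjamini-Hochberg adjusted threshold of 0.05, 0 members were called higher and 0 lower. The shares over all genes were 0.392% higher and 0.185% lower. At an unadjusted p under 0.05, 25 members were higher and 2 lower, where all genes gave 6.22% and 8.1%. For Cpb1 the difference was 5.86 with a standard error of 1.5 and a 95% interval from 2.53 to 9.20. Its standard deviation was 0.07 among the wild types, and the knockout spread came from KO3. Without KO3, 23 members were called higher, where 0.775% of all genes were. These are the same 23 that were above the wild type range in KO2. Leaving out any other single array gave 0 called members. Nothing is read from these counts, since the values of all 4 knockouts, KO3 included, were known when the genes were chosen.

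The 3 high arrays also differed among themselves. Their values were known when the genes were chosen, so these differences are a description. KO2 gave the highest signal of all 8 arrays for 25 of the 32 members, and the share over all genes was not counted. Among the 20 members above the wild type range in KO1, 18 had the order KO2 over KO4 over KO1, an order found in 16.8% of all genes. Amy2b and Tmed6 were the exceptions. The median of KO2 minus KO1 was 1.14 on the log2 scale (range 0.47 to 2.13), against -0.01 over all genes. The median of KO4 minus KO1 was 0.62 (range -0.07 to 1.59), against 0.01 over all genes. Each is a difference between single mice without replicates, and genes of 1 array share its RNA, so no test is given.

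**Figure D3:**
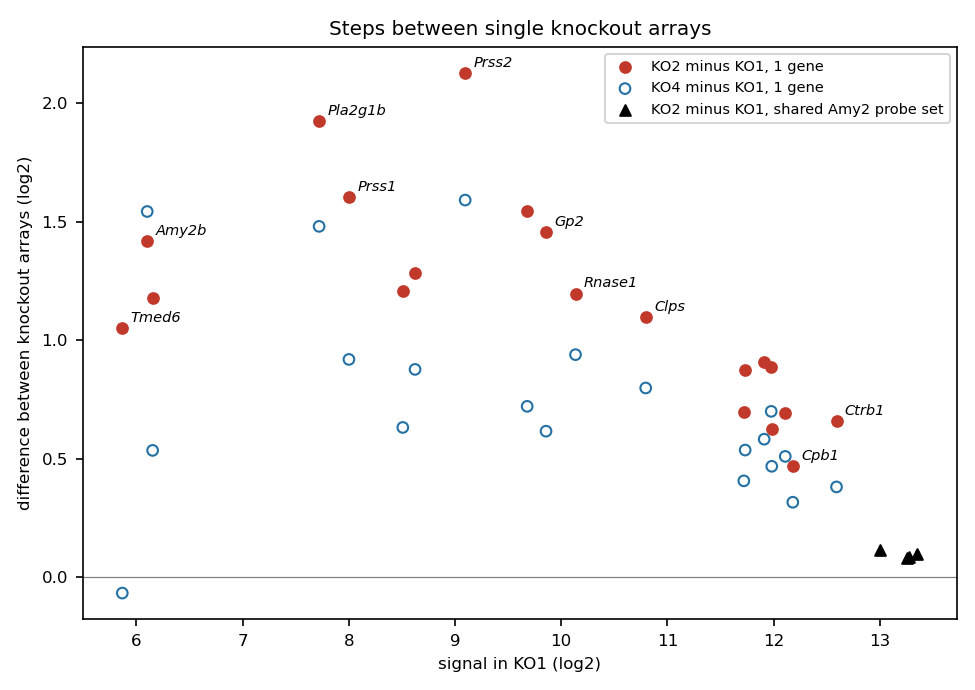
Difference between knockout arrays (vertical axis, log2) against the signal in KO1 (horizontal axis, log2) for 20 acinar genes, KO2 minus KO1 as filled circles and KO4 minus KO1 as open circles, with 4 probe sets shared by the Amy2 genes as triangles. KO2 minus KO1 lies between 0.47 for Cpb1 and 2.13 for Prss2, and between 0.08 and 0.12 for the Amy2 probe sets. KO1 enters both axes and the axis mixes probe sets, so no trend is read from it.

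By gene, KO2 minus KO1 was 2.13 for Prss2, 1.93 for Pla2g1b, 1.05 for Tmed6 and 0.47 for Cpb1. The 4 shared Amy2 probe sets had differences of 0.08 to 0.12. Their signals in KO1 and KO2 were near the highest on any array, 13.66, and compression there was not tested.

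Signals of other pancreatic genes were set beside the members. Of 12 measured further acinar genes, Serpini2, Aqp12 and Cckar were above the wild type range in KO1, KO2 and KO4. Serpini2, a pancreatic serpin, gave 6.65, 8.40, 2.49 and 7.35 in KO1 to KO4, against 3.13, 2.42, 2.95 and 3.16 in WT1 to WT4. Cckar, the cholecystokinin receptor through which acinar cells are told to secrete, gave 7.42, 8.46, 5.46 and 8.08 in the knockouts, against 5.73, 5.45, 5.53 and 6.03 in the wild types. Aqp12, a pancreatic aquaporin, gave 7.47, 8.67, 5.67 and 8.19 in the knockouts, against 5.77, 5.82, 5.60 and 5.98 in the wild types. The rest of the 12 were not above that range in any knockout. Among them Cela3a, an elastase gene, gave 4.67, 4.44, 4.02 and 5.08 in the knockouts, against 4.45, 4.33, 4.73 and 4.59 in the wild types. The 12 genes had a median difference of 0.33 with 0 called in either direction, and 9 of 12 were above 0. The lowest difference was -0.28, for Rab3d. Zg16 and Dmbt1 are also made by goblet and other gut epithelial cells. Zg16 lay between 12.59 and 12.91 in the knockouts and between 12.85 and 13.01 in the wild types. Dmbt1 lay between 12.06 and 12.39 in the knockouts and between 11.55 and 12.05 in the wild types. Dmbt1 thus had all 4 knockouts above all 4 wild types, as 3.79% of all genes did.

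The Reg lectins, secreted by both acinar cells and gut epithelium, differed among themselves. Reg1 gave 11.31, 12.80, 2.66 and 12.37 in KO1 to KO4, against 2.93, 3.19, 2.56 and 2.66 in WT1 to WT4. Reg2, Reg3a and Reg3d were likewise over 1 log2 unit above every wild type in KO1, KO2 and KO4 and not in KO3. Reg3b gave 11.69, 12.69, 9.09 and 11.38 in the knockouts, against 5.88, 4.68, 6.18 and 5.99 in the wild types, and with Reg3g was called higher by limma (adjusted p = 0.00622 for both). Both were above every wild type in KO3 too. Reg4 gave 10.74, 11.10, 11.51 and 11.82 in the knockouts, against 11.96, 12.18, 12.05 and 12.21 in the wild types, all knockouts below all wild types (adjusted p = 0.101).

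Islet and duct genes showed no rise of over 1 log2 unit above the wild type range. Of 13 islet hormone and beta cell genes, 0 were above the wild type range by over 1 log2 unit in any knockout. Ins2, an insulin gene, gave 3.91, 4.09, 3.82 and 4.07 in KO1 to KO4, against 3.76, 3.70, 3.79 and 3.70 in WT1 to WT4. Its 4 knockouts were above its 4 wild types and in the order KO2, KO4, KO1 and KO3 (difference 0.24, adjusted p = 0.217). Iapp, the amylin gene of beta cells, gave 3.48, 3.70, 3.5 and 3.62 in the knockouts, against 3.37, 3.71, 3.60 and 3.58 in the wild types. The list median was -0.03, with 0 called higher and 1 lower, Ppy, a hormone gene that colon endocrine cells also express. Sst, another such hormone gene, also had all 4 knockouts below all wild types, at 7.94 to 8.17 against 8.48 to 8.88 (adjusted p = 0.0501). Of 8 duct genes, 0 were above the range by that margin in any knockout and 0 were called, and their median was -0.10. Without the margin, Onecut1 had all 4 knockouts above all 4 wild types, as 3.79% of all genes did. Car2 and Krt19 had all 4 knockouts below, as 5.02% of all genes did. Low signal on an array without detection calls does not show that islet or duct RNA was missing.

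**Figure D4:**
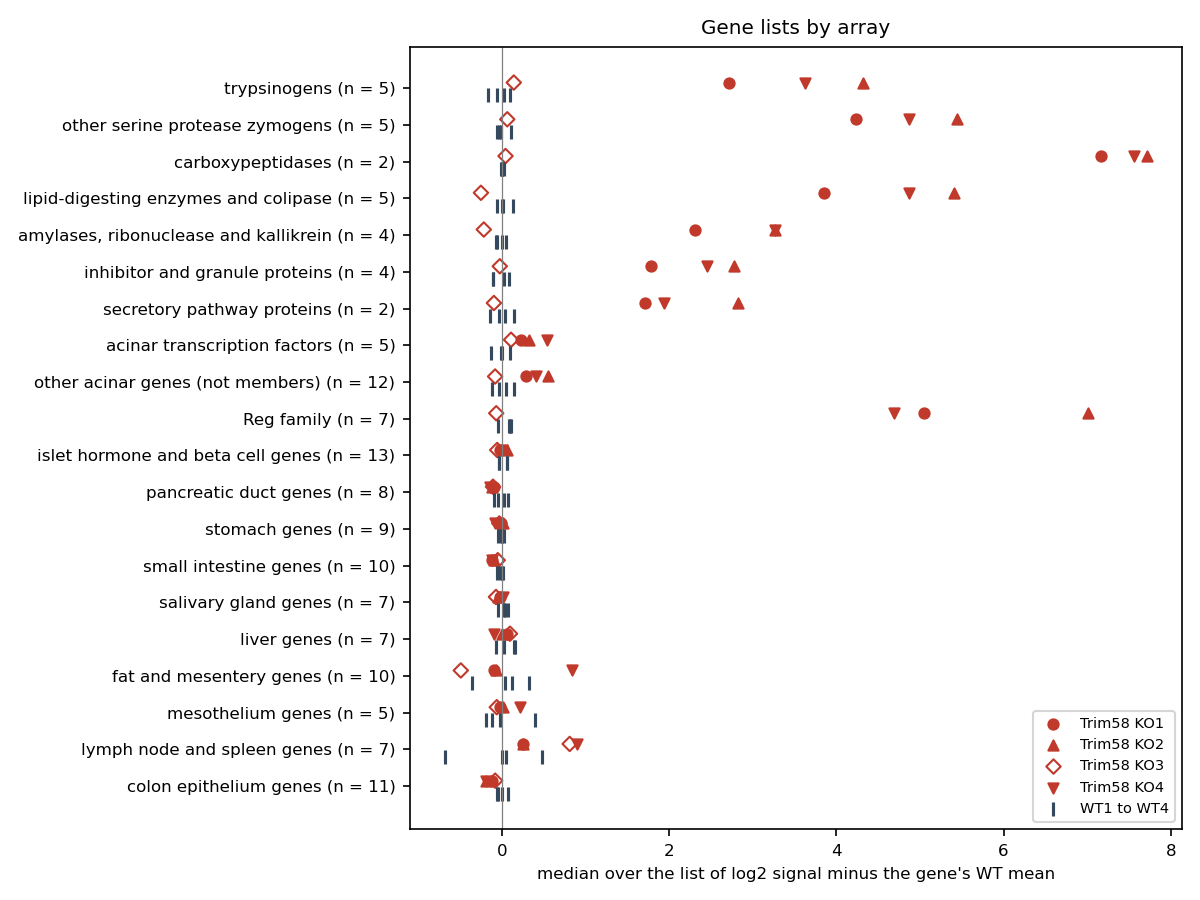
Median over each gene list of log2 signal minus the gene's wild type mean (horizontal axis), with Trim58 knockouts as red symbols above and wild types as dark ticks below in each row. KO1, KO2 and KO4 stand at 1.71 or more for the enzyme, granule and secretory lists, while the islet, duct, stomach, small intestine, salivary and liver lists stay between -0.15 and 0.15 in all arrays.

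Markers of other tissues that could lie beside the colon were read the same way. In KO1, KO2 and KO4 the medians of 9 stomach genes were -0.01, 0.01 and -0.09, and 0.05, -0.01 and -0.10 for 7 liver genes. None of the stomach, small intestine, salivary or liver genes was above the wild type range by over 1 log2 unit in any knockout, and 0 in each list were called. Without that margin, all knockouts lay below all wild types for 1 stomach gene, Ctse (difference -1.09), and 2 small intestine genes. They lay above for 1 liver gene. Over all genes the shares were 5.02% below and 3.79% above. 10 fat genes, of which Adipoq is a defining one, had medians of -0.10, -0.08, -0.50 and 0.83 in KO1 to KO4, against 0.11, -0.36, 0.03 and 0.33 in WT1 to WT4. Their order among the knockouts was thus KO4, KO2, KO1 and KO3, and KO1 and KO2 lay inside the wild type range. Lep, the fat hormone leptin, was the one fat gene above the range, in KO4. Among 5 mesothelium genes 0 were above the range or called. Among 7 lymph node and spleen genes, Cr2, a B cell receptor for complement, was called higher. Cr2 and Ms4a1, a B cell surface gene, were over 1 log2 unit above every wild type in KO3 and no gene of the list was in KO1, KO2 or KO4. With no such margin, 3 of the 7 genes had all 4 knockouts above all 4 wild types, as 3.79% of all genes did. These were Cr2, Ms4a1 and Cxcl13, with differences of 1.57, 1.44 and 1.25. The list medians were 0.25, 0.25, 0.81 and 0.90 in KO1 to KO4. Of 11 colon epithelium genes 0 were above the range and Car4 alone was called. Their part in the enzyme signal was not tested.

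Genes outside the member and marker lists were ranked by closeness to the mean profile of the 21 enzyme genes. Serpini2 and the Reg genes were therefore not ranked. Closeness was measured by root mean square distance over the 8 arrays, each gene set to 0 at its wild type mean. Tff2, a mucosal peptide of stomach and pancreas, was the closest of the genes so ranked, at a distance of 0.48, with 8.18, 9.74, 5.70 and 9.20 in KO1 to KO4 and 5.76, 5.08, 5.36 and 5.08 in WT1 to WT4. Lcn2, Hp, Tmed11, Chil3, Mmp10, Mmp13, Saa3, Cxcl5 and Timp1 followed at 1.23 to 1.41. Members lay between 0.14 for Cuzd1 and 3.01 for Spink1. In KO3, Tff2 and Tmed11 lay inside the wild type range and the other 8 above it, as 18.2% of all genes did. The 10 genes were picked for their profile, so these positions are a description.

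The place of KO3 was also read over all genes. Over all 22180 genes its mean correlation was 0.9867 with the other knockouts and 0.9882 with the wild types. With the members, the further acinar genes and the Reg family left out (51 genes), it was 0.9916 with the other knockouts and 0.9883 with the wild types. KO1, KO2 and KO4 correlated more with their own genotype in both calculations, at 0.9895 to 0.9904 against 0.976 to 0.9835 over all genes.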

How the data were processed

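RNA of 8 mice, 200 ng per sample, was amplified and hybridised per the labels' protocols to 1 Affymetrix array each. The authors deposited log2 signals made with RMA in Affymetrix Expression Console 1.4, per the submitters' processing notes. RMA corrects background, gives arrays a common distribution and compresses differences near background. Near saturation the array signal itself compresses differences. No genome build, filter or scan date was given in the sources used. Array medians lay between 5.73 and 5.83, and the number of arrays limits the precision.

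Of 41345 probe sets, 23521 carried 1 gene symbol, 1814 several and 16010 none; single-symbol probe sets gave 22180 genes. Knockout minus wild type was fitted over all 8 arrays by limma 3.58.1 under R 4.3.3, using lmFit then eBayes without covariates or a filter on dim genes, with Benjamini-Hochberg adjustment over all genes. Replicates were separate mice. Genes named were all members, genes of the marker lists, and the 10 nearest profiles outside those lists, without predicted genes and olfactory or vomeronasal receptors. Counts per array used a margin of 1 log2 unit. Alternatives were other variance models, array weights, normalizations, a filter on dim genes, other probe set rules, updated symbols, the replicate number as a block, and each array left out. Members, lists and tests were chosen with earlier results of these data known. Simulated data used the real means and spreads of 22180 genes, except that each member was given the median spread. On these data limma recovered 46%, 96%, 100% and 100% of genes changed by 0.5, 1, 2 and 3 on the log2 scale. These shares do not hold for members whose knockouts spread more, such as Cpb1 with a knockout standard deviation of 3.92.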

Additional observations from a re-analysis of the deposited data

Results flagged for a closer look

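Within each genotype, an array was marked when its gap to the nearest other array, divided by the range of the 4 arrays, exceeded Dixon's 95% critical value for 4. Of 298 groups of 4 examined, 19 were marked, and chance marks about 1 in 20. KO3 stood apart as low in 8 members, with ratios of 0.942 for Cpb1, 0.915 for Cpa1, 0.910 for Ctrb1, 0.908 for Pnliprp1, 0.884 for Cel, 0.850 for Ctrl, 0.843 for Try4 and 0.838 for Rnase1. Over all genes KO3 was marked as low in 0.604%. The members were selected on high signals in the other knockouts, so these marks restate that choice and nothing is read from their number. The same array was low for Reg1 (0.853) and Reg2 (0.851). KO2 was high for Klk1 (0.952), at 13.03 against 12.91 to 12.92 in the other knockouts. Among wild types, WT3 was high for Ctrb1 (0.873) and low for Cela3b (0.879).

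Genes of the comparison lists gave the other marks. KO4 was high for the fat genes Lep (0.959) and Cidec (0.907) and for Tff1 (0.897), and KO3 was high for the colonocyte gene Car4 (0.949). WT2 was low for Tff1 (0.882) and high for Rbp2 (0.844).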

How the results depend on the processing

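The number of members above the wild type range was 18, 20, 0 and 19 in KO1 to KO4 with the dimmest 33.3% of genes left out, where fewer members were tested. Otherwise it stayed at 20, 23, 0 and 21 under repeated quantile normalization, equal array medians, other probe set rules and updated symbols. Without single wild type arrays it ranged from 20 to 21 in KO1, 23 to 23 in KO2, 0 to 0 in KO3 and 21 to 22 in KO4. Members called higher were 0 in every fit except without KO3, where they were 23 (range over single arrays left out 0 to 23), and members called lower were 0 throughout. Of 539 repeats of single member differences, 516 stayed on the same side of the threshold, 23 passed it without KO3 and 0 turned sign as a call. Over all genes, 87 were called higher and 41 lower. The lower count was 64 with a mean-variance trend and robust variance, 69 with array weights and 80 without the dimmest genes. Leaving out single arrays gave 24 to 172 higher and 1 to 80 lower: 46 and 9 without KO1, 36 and 7 without KO2, 172 and 80 without KO3, 24 and 1 without WT2, 50 and 28 without WT3, and 56 and 9 without WT4. The cause was not tested. With the replicate number as a block, 56 genes were higher, 8 lower and 0 members called. Deviations of same-numbered mice correlated at -0.142, -0.16, 0.042 and 0.052, and 0 of 8 arrays correlated best with their own number. This gave no sign of pairing by number, but so few mice cannot exclude it.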

Other observations

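A predicted gene and an unnamed transcript were left out of the named genes by rule and are given after their values were seen. Gm5409 gave 11.38, 12.58, 6.13 and 12.36 in KO1 to KO4, against 6.02, 5.66, 5.99 and 5.98 in WT1 to WT4. The transcript 1810018F18Rik gave 6.34, 7.92, 4.89 and 7.42 in the knockouts, against 4.69, 4.97, 4.80 and 5.33 in the wild types. Both followed the 3 arrays with high enzyme signal.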
